A study of Mus musculus with 12 samples.

Results

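The genes described here are 31 neuronal genes: 7 of the axon and dendrite cytoskeleton, 7 of synaptic vesicles and release, 2 of synaptic plasticity, 6 of transmitter synthesis, transport and reception, 7 that mark ganglion cells and other neurons, and 2 others. They were chosen with earlier results of these data known and taken by symbol, and all 31 were found among the 35275 genes listed. Counts of the 31 set beside a share of all genes are therefore descriptions, not tests of the set. Each passed the filter on low counts, so all 31 are among the 18344 genes tested. Polyadenylated RNA was sequenced from optic nerves of mice that model neurofibromatosis type 1 (NF1), in 12 libraries. Mice had received the DNA cross-linking platinum compound carboplatin (3 libraries), the MEK kinase inhibitor selumetinib (3 libraries), or phosphate-buffered saline (PBS, 6 libraries). All 3 groups carry the NF1 model. Its allele and any driver, as well as doses, ages and sexes, are not given in the sources used here. As tissue the labels name optic nerve, and as cells only nerve cells. Nothing in the labels says that each library was made from its own animal, and p-values then reflect only how these libraries vary, which may be technical.

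The optic nerve carries the axons of retinal ganglion cells, whose cell bodies and messenger RNA lie mostly in the retina, while most cells inside the nerve are oligodendrocytes, astrocytes and other glia. Neurofilaments are axonal filaments built of light, medium and heavy chains, and microtubules beside them carry vesicles to the terminals. At a synapse, a vesicle filled by a transmitter transporter fuses with the membrane through SNARE proteins when a synaptotagmin senses calcium. GABA is made by glutamate decarboxylases, and excitatory neurons instead load glutamate through a vesicular glutamate transporter.

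Totals ran from 21793052 to 33375754 counts per library. Values below are CPM after TMM scaling of the library totals, unless another scale is named. Mbp and Gfap, which define oligodendrocytes and astrocytes, were abundant in every library, at 8274 to 54855 CPM and 1698 to 12076 CPM. The ganglion cell factors Pou4f2 and Pou4f3 were at most 0.212 CPM and 0.197 CPM in any library. The summed level of 10 skeletal muscle genes was 85123 CPM in PBS 1, against at most 387 CPM in PBS 2 to 6. Counts of 4 Y-linked genes were 0 in 1 of 3 carboplatin, 3 of 3 selumetinib and 1 of 6 PBS libraries. In such bulk RNA, fewer cells of a type and less RNA per cell cannot be told apart.

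The 31 genes together held 0.100%, 0.0846% and 0.0822% of the counts of carboplatin 1 to 3. In selumetinib 1, 2 and 3 they held 0.636%, 0.670% and 0.126%, and in PBS 0.0385% to 0.205%, with a median of 0.112%. Selumetinib 1 and 2 were thus the high libraries, while selumetinib 3 lay inside the PBS range. Per gene, both selumetinib 1 and 2 were above all the other 10 libraries for 26 of the 31 genes, and the same held for 18.7% of all genes tested. The exceptions were Nefh, Tubb3, Slc17a7, Rbpms and Pou4f1. Selumetinib 3 lay within the PBS range for 26 of the 31, as it did for 83.2% of all genes tested, and above it for Syt2, Syt6, Nptx2 and Isl1. This difference among the selumetinib libraries was noticed in the values themselves, so they are given one by one and the split is not tested.

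**Figure D1:**
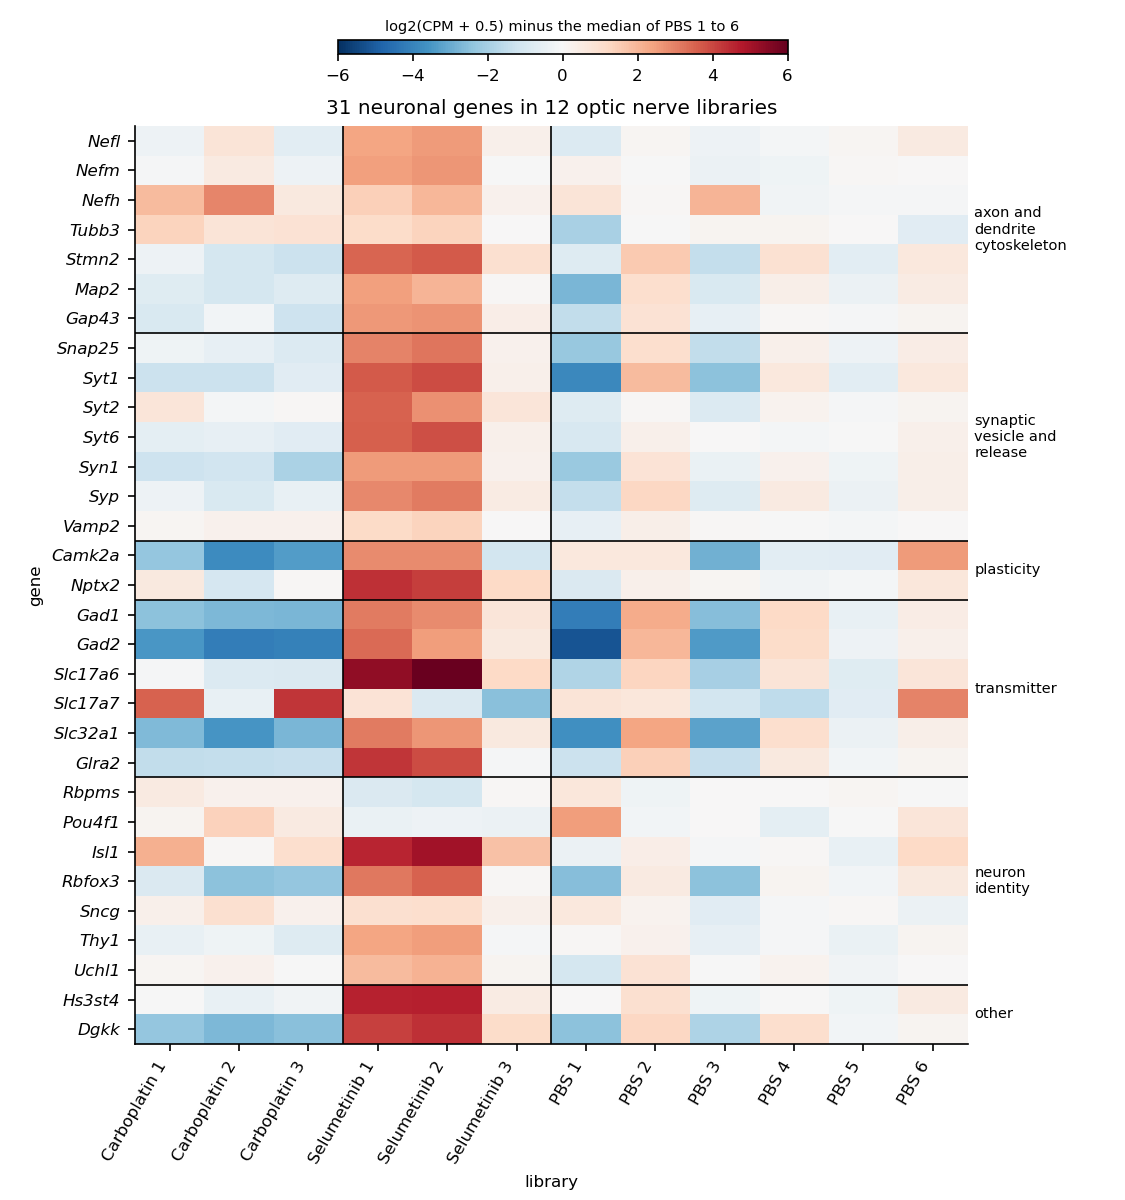
Level of the 31 genes (rows, grouped by role) in the 12 libraries (columns), as log2(CPM + 0.5) minus the median of PBS 1 to 6; red is above and blue below that median. Selumetinib 1 and 2 are above every other library in 26 of the 31 rows, while the GABA genes Gad1, Gad2 and Slc32a1 are blue in the 3 carboplatin libraries and in PBS 1 and PBS 3.

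Per kilobase of exon, which allows levels of different genes to be set side by side, Uchl1 was the highest of the 31 in PBS at 69.8 CPM per kb (mean, n = 6). The vesicle SNARE gene Vamp2 followed at 44.4 CPM per kb, Tubb3 at 42.0 CPM per kb and Gap43 at 30.4 CPM per kb. The neurofilament chains were lower on this scale, at 8.43 CPM per kb for Nefl, 4.27 CPM per kb for Nefh and 2.73 CPM per kb for Nefm. Syt2, Isl1, Hs3st4 and Pou4f1 were at 0.0934, 0.132, 0.154 and 0.185 CPM per kb. In carboplatin the order of the chains was different, with Nefh at 11.7 CPM per kb, Nefl at 9.03 CPM per kb and Nefm at 3.04 CPM per kb (means, n = 3), while selumetinib had Nefl at 35.2, Nefm at 12.1 and Nefh at 7.05 CPM per kb. These orders were not tested.

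The PBS libraries themselves differed far more for some of these genes than for others. The summed level of the neurofilament genes Nefl, Nefm and Nefh spanned 49.5 to 80.1 CPM over PBS 1 to 6, a ratio of highest to lowest of 1.62. Singly, the ratios of Nefl and Nefh were larger, at 2.67 and 4.84. The summed level of the GABA genes Gad1, Gad2 and Slc32a1 was 1.35, 263, 6.00, 126, 44.0 and 74.7 CPM in PBS 1 to 6, a ratio of 194, and of 43.8 without PBS 1. Whole sets did not differ in this way. The ratio was 5.07 for the sum of all cytoskeleton genes and 3.75 for that of all synaptic and transmitter genes. Without PBS 1 these were 2.07 and 3.58. The median of that ratio over all genes tested was 2.23 (17352 genes with a count in each PBS library), and 1.46 over PBS 2 to 6. Single genes with wide PBS ranges were Gad2 (527), Slc32a1 (166), Gad1 (132), Syt1 (88.1), Dgkk (77.4), Glra2 (53.0), Camk2a (46.1) and Slc17a7 (45.0). Thy1 at 1.73, Vamp2 at 1.85, Nefm at 1.55 and Rbpms at 1.96 had narrow ones. PBS 2 was the highest PBS library for 17 of the 31 genes and PBS 1 the lowest for 17.

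Carboplatin was compared with PBS in the model of all 12 libraries. The GABA genes Gad1, Gad2 and Slc32a1 had low values in each carboplatin library, and Tubb3 had high ones, but no gene of the 31 passed the threshold in either direction. By edgeR 0 of 31 were called at an adjusted p under 0.05, against 2.09% of all genes tested (1.57% higher, and 0.518% in the other direction). With p under 0.05 before adjustment, 2 were higher (Nefh and Tubb3; background 8.12%) and 7 lower (Syn1, Camk2a, Gad1, Gad2, Slc32a1, Glra2 and Dgkk; background 8.43%). DESeq2 called 0 higher (background 4.73%) and 6 lower (background 4.25%), and limma voom called 4 higher (background 17.1%) and 3 lower (background 12.7%). The median log2 fold change of the 31 was -0.71, beside -0.11 for all genes tested, and by role it was 0.10 for the cytoskeleton, -0.73 for vesicles and release, -3.79 for transmitter genes and 0.03 for neuron markers. Tubb3 was the only one of the 31 whose groups did not overlap, and 6.97% of all genes were apart in that direction. None of the 31 was apart in the lower direction (background 5.23%). Without PBS 1, edgeR called 5 of the 31, Tubb3 as higher and Gad1, Gad2, Slc32a1 and Dgkk as lower. Over all genes that fit called 1230 higher and 711 lower. With PBS 4 to 6 as the controls it called Nefh as higher and the same 4 genes as lower, beside 1443 and 759 of all genes. With PBS 1 to 3 it called 0 of the 31, beside 7 higher and 0 lower of all genes.

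Selumetinib was compared with PBS in the same model, and shares its PBS libraries with the comparison before. Fitted log2 fold changes were positive for 28 of the 31 genes and negative for Slc17a7, Rbpms and Pou4f1, with a median of 2.11 beside -0.09 for all genes tested. No gene passed, since edgeR called 0 of the 31 and 0 of all 18344 genes (background 0.00%), with a smallest adjusted p of 0.0884. At an unadjusted p under 0.05, 23 were higher (background 14.0%) and 1 was lower (background 10%). DESeq2 called 21 higher (background 9.64%) and 0 lower (background 4.08%), and limma voom 28 higher (background 29.0%) and 1 lower (background 26.4%). The groups were apart for Syt2, Syt6, Nptx2 and Isl1, all higher in selumetinib, and 3.23% of all genes were apart in that direction. None of the 31 was apart in the lower direction (background 2.70%). Without selumetinib 3, edgeR called 23 higher and 1 lower (Rbpms), among 4089 genes in all. Without selumetinib 1 and 2, which leaves 1 library assumed to vary like the other groups, it called 0 and the median was 0.22.

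Carboplatin was compared with selumetinib last, a contrast that shares the libraries of both comparisons above. The genes lower in carboplatin than in selumetinib came from every role, although Nefh, Tubb3, Map2, Syt1, Vamp2 and Slc17a7 of the cytoskeleton, vesicle and transmitter roles did not pass. By edgeR 20 of the 31 were lower (background 8.35%) and 0 higher (background 5.65%), with a median log2 fold change of -3.14 beside -0.01 for all genes tested. At an unadjusted p under 0.05, 25 were lower (background 17.9%) and 2 higher (background 13.6%). DESeq2 called 24 lower (background 15.9%) and 2 higher (background 11%), and limma voom 26 lower (background 28.9%) and 2 higher (background 30%). By role, the lower genes were 4 of 7 of the cytoskeleton, 5 of 7 of vesicles and release, 2 of 2 of plasticity, 5 of 6 of transmitters, 2 of 7 neuron markers and 2 of 2 others. The groups did not overlap for 19 genes that were lower (background 20.8%) and 2 that were higher, Rbpms and Pou4f1 (background 20.9%). The 20 calls depend on the carboplatin libraries and on selumetinib 1 and 2: edgeR called 0 of the 31 when any single carboplatin library was left out, and 0 without selumetinib 1 or without selumetinib 2. With any single PBS library left out, 15 to 24 were lower, beside 985 to 3272 of all genes. The median log2 fold change of the 31 stayed between -3.64 and -2.78 whichever single library was left out. Without selumetinib 3 edgeR called 26 (25 lower, and Rbpms higher), beside 2759 lower and 2029 higher of all genes. Without selumetinib 1 and 2, which leaves 1 selumetinib library, the median was -1.05.

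**Figure D2:**
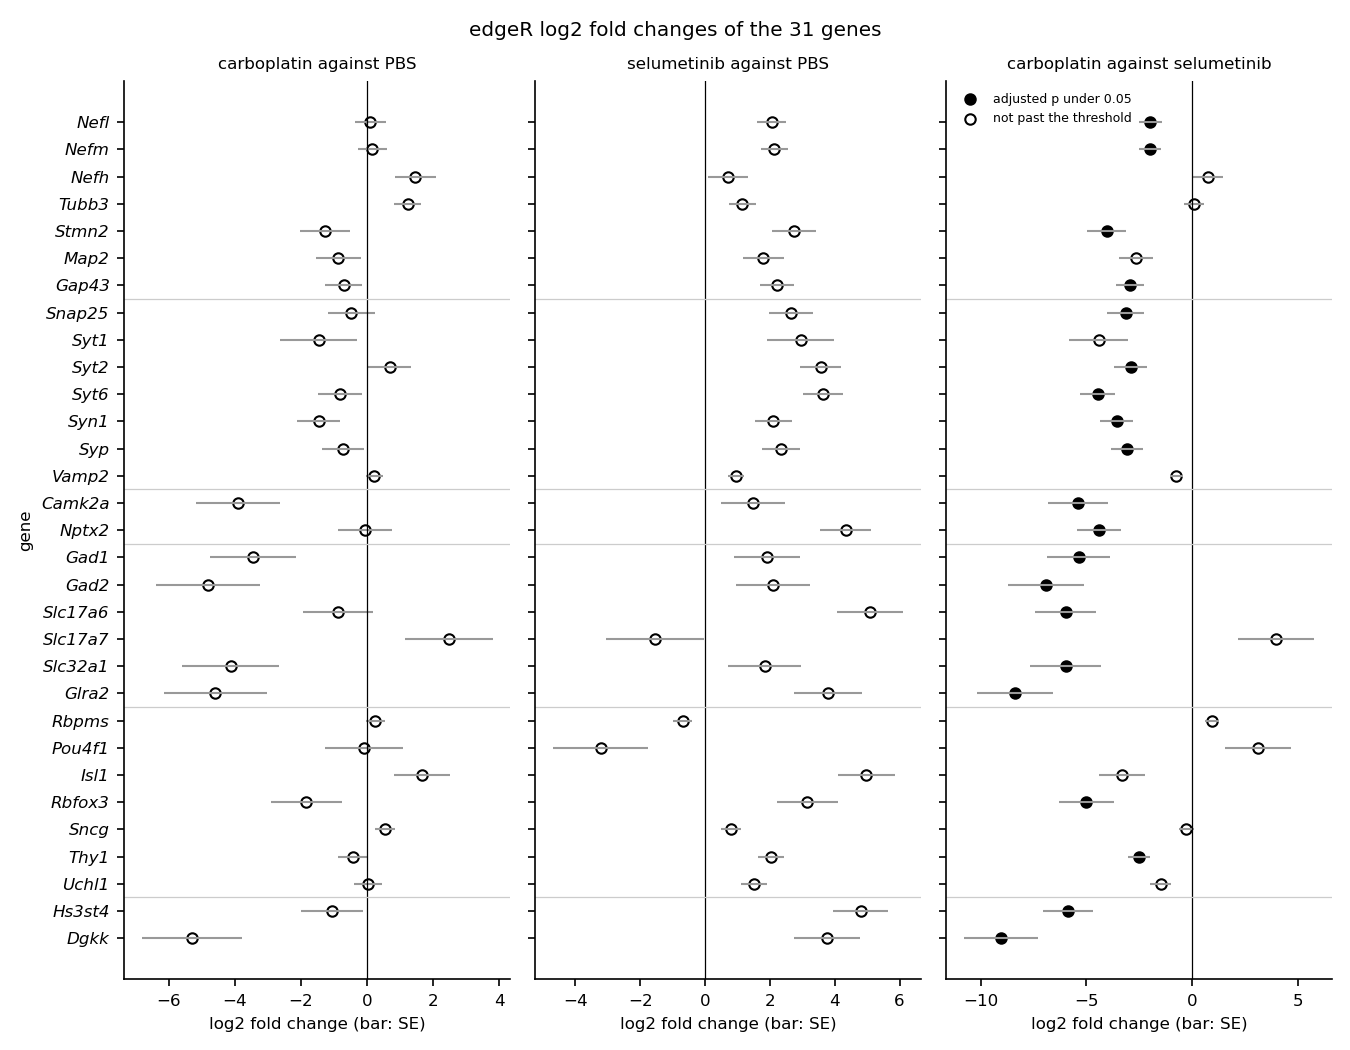
edgeR log2 fold change (points; bars are SE) of each of the 31 genes in the 3 comparisons, with filled points for an adjusted p under 0.05. No point is filled against PBS and 20 are filled for carboplatin against selumetinib, all left of 0; the points of Glra2 and Dgkk in carboplatin rest on 0 to 5 counts per library and depend on the prior count, as does that of Pou4f1 in selumetinib with 2 to 3 counts.

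Among the cytoskeleton genes, Nefl, the light neurofilament chain that forms the filament core (chromosome 14, 68083863 to 68089095, build mm10), was at 23.1, 49.8 and 18.7 CPM in carboplatin 1 to 3, and 151, 171 and 35.5 CPM in selumetinib 1 to 3. PBS spanned 15.9 to 42.4 CPM with a median of 28.9 CPM. Carboplatin and PBS overlapped (log2 0.10 ± 0.47 SE), while selumetinib 1 and 2 stood above every other library. Nefl was lower in carboplatin than in selumetinib by a log2 fold change of -1.97 ± 0.56 (edgeR adjusted p = 0.0424), although carboplatin 2 was above selumetinib 3.

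Nefm, the medium chain, was at 15.6, 23.9 and 13.2 CPM in carboplatin, 90.7, 103 and 15.7 CPM in selumetinib, and 12.4 to 19.3 CPM in PBS, with a median of 16.2 CPM. Its difference between carboplatin and selumetinib was -1.99 ± 0.53 (edgeR adjusted p = 0.0342), with carboplatin 2 above selumetinib 3, and against PBS carboplatin stood at log2 0.15 ± 0.44. Without selumetinib 1 and 2 the fitted difference was 0.15. Nefl and Nefm lie on opposite strands of chromosome 14, and in the annotation the whole of Nefl falls inside the span of Nefm (68082590 to 68124846). The strand setting of the counting is not given in the sources used here, so the split of reads between them is uncertain.

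Nefh, the heavy chain, did not follow the other chains. It was at 41.1, 83.9 and 15.8 CPM in carboplatin, 29.2, 42.7 and 12.5 CPM in selumetinib, and 9.12 to 44.2 CPM in PBS, with a median of 10.6 CPM. Carboplatin 2 was the highest of the 12 libraries, and PBS 3 was above both carboplatin 1 and selumetinib 2. Nothing passed for Nefh with all libraries (carboplatin against PBS log2 1.46 ± 0.61, edgeR adjusted p = 0.264; selumetinib against PBS 0.72 ± 0.62, adjusted p = 0.469). The mature oligodendrocyte sum was also highest in carboplatin 2, at 94968 CPM, against 50637 and 64176 CPM in carboplatin 1 and 3, and its part in the Nefh values was not tested.

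Tubb3 encodes the neuronal beta-III tubulin and was at 230, 156 and 166 CPM in carboplatin, 195, 234 and 92.0 CPM in selumetinib, and 23.7 to 104 CPM in PBS, with a median of 92.0 CPM. Each carboplatin library was above every PBS library, with a log2 fold change of 1.23 ± 0.41 that did not pass (edgeR adjusted p = 0.160). In that comparison PBS 1 was by far the lowest library. Tubb3 overlaps a predicted gene, Gm20388, on its own strand, so its reads may be shared.

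Stmn2, a stathmin that binds tubulin in growing axons, was at 13.3, 7.83 and 6.44 CPM in carboplatin, 196, 223 and 33.1 CPM in selumetinib, and 5.80 to 50.5 CPM in PBS, with a median of 18.4 CPM. Every carboplatin library was below every selumetinib library, with a difference of -4.03 ± 0.92 (edgeR adjusted p = 0.0225). Gap43, a growth cone protein, was at 23.9, 41.3 and 19.5 CPM in carboplatin, 284, 304 and 60.9 CPM in selumetinib, and 16.5 to 84.7 CPM in PBS, with a median of 46.2 CPM. The same 2 groups were apart for it, at -2.94 ± 0.66 (edgeR adjusted p = 0.0217). Map2, which binds microtubules mainly in dendrites, was at 117, 92.7 and 112 CPM in carboplatin, 1056, 796 and 202 CPM in selumetinib, and 28.5 to 382 CPM in PBS, with a median of 197 CPM. Its groups were apart between carboplatin and selumetinib too, but the difference of -2.67 ± 0.81 missed the threshold (edgeR adjusted p = 0.0506).

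**Figure D3:**
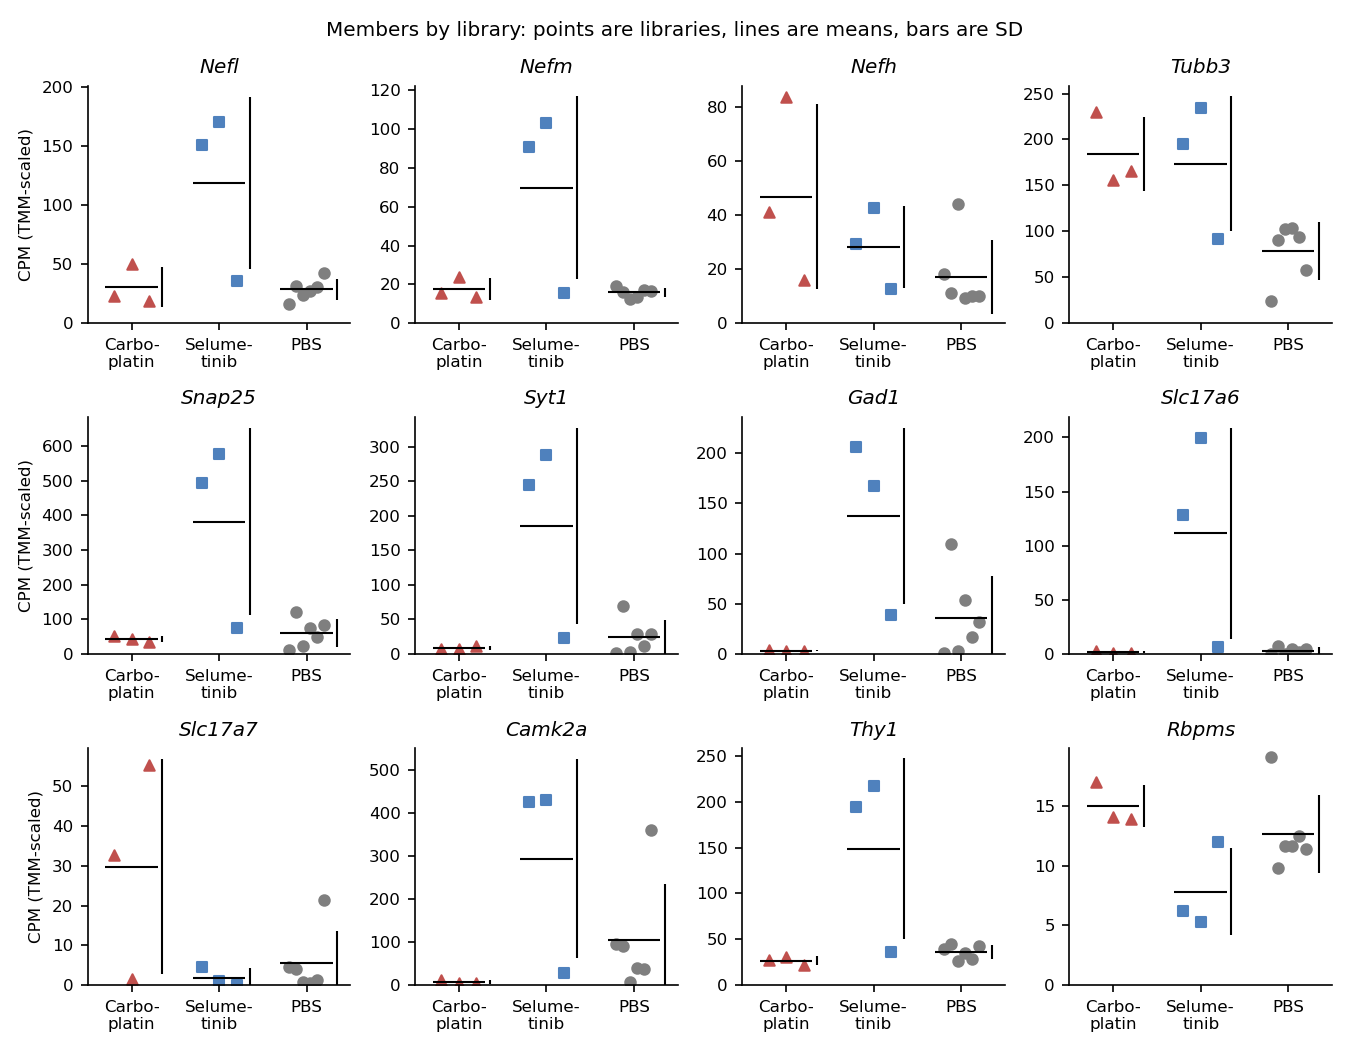
CPM of 12 of the 31 genes in each library, with one panel per gene; points are libraries, horizontal lines group means and vertical bars 1 SD, stopped at 0. Selumetinib 1 and 2 sit far above selumetinib 3 for Nefl, Nefm, Snap25, Syt1, Gad1, Slc17a6, Camk2a and Thy1, whereas Slc17a7 is high in carboplatin 1 and 3 and Rbpms is low in selumetinib 1 and 2.

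Among the release genes, Snap25, the SNARE of the plasma membrane, was at 51.8, 43.5 and 35.1 CPM in carboplatin, 494, 577 and 74.6 CPM in selumetinib, and 12.4 to 122 CPM in PBS, with a median of 62.7 CPM. It was lower in every carboplatin library than in any selumetinib library (-3.14 ± 0.88, edgeR adjusted p = 0.0396). Syp, synaptophysin of the vesicle membrane, was at 51.8, 34 and 47.9 CPM in carboplatin, 471, 556 and 91.0 CPM in selumetinib, and 23.8 to 155 CPM in PBS, with a median of 66.6 CPM. It too was apart between the drugs (-3.06 ± 0.76, edgeR adjusted p = 0.0278). Vamp2, the vesicle SNARE, differed least of this role, at 186, 202 and 204 CPM in carboplatin, 381, 430 and 175 CPM in selumetinib and 120 to 221 CPM in PBS, with a median of 171 CPM, and no comparison passed.

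Syn1 encodes synapsin, which tethers vesicles in reserve, and was at 9.95, 10.4 and 6.11 CPM in carboplatin, 145, 141 and 28.7 CPM in selumetinib, and 4.66 to 43.3 CPM in PBS, with a median of 24.4 CPM. Only PBS 1 was below the carboplatin libraries, and PBS 1 was also the muscle-rich library. Against PBS the fold change of -1.47 ± 0.65 did not pass (edgeR adjusted p = 0.288), while carboplatin was below selumetinib without overlap (-3.57 ± 0.77, adjusted p = 0.0193). Syn1 overlaps Timp1 and Araf on the opposite strand, so its counts are uncertain in part.

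The synaptotagmins differed in level. Syt1, the calcium sensor of fast release, was at 7.26, 7.18 and 11.5 CPM in carboplatin, 244, 287 and 22.9 CPM in selumetinib, and 0.792 to 69.7 CPM in PBS, with a median of 20.4 CPM. Its drug groups were apart, but the difference of -4.42 ± 1.41 missed the threshold (edgeR adjusted p = 0.0593). Syt2, a related calcium sensor, was at 1.75, 0.734 and 0.935 CPM in carboplatin, 15.4, 8.49 and 1.75 CPM in selumetinib, and 0.262 to 1.04 CPM in PBS, with a median of 0.852 CPM. All selumetinib libraries were above PBS (3.57 ± 0.63, edgeR adjusted p = 0.0884), and carboplatin was lower than selumetinib by -2.90 ± 0.78 (adjusted p = 0.0366). Syt2 overlaps Ppp1r12b on the opposite strand. Syt6, another member of the family, was at 0.786, 0.856 and 0.668 CPM in carboplatin, 22, 27.2 and 1.88 CPM in selumetinib, and 0.466 to 1.86 CPM in PBS, with a median of 1.40 CPM. Selumetinib 3 exceeded PBS 6 only slightly. Between the drugs the difference was -4.46 ± 0.83, with the smallest adjusted p of the 31 genes there (edgeR adjusted p = 0.0135).

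Camk2a, the alpha subunit of the calcium and calmodulin-dependent kinase of excitatory synapses, was at 11.7, 3.87 and 5.41 CPM in carboplatin, 424, 429 and 27.2 CPM in selumetinib, and 7.80 to 359 CPM in PBS, with a median of 65.4 CPM. Only PBS 3, at 7.80 CPM, lay inside the carboplatin range, and PBS 6, at 359 CPM, was the highest PBS library. Against PBS the log2 fold change of -3.90 ± 1.27 did not pass (edgeR adjusted p = 0.153), and against selumetinib that of -5.39 ± 1.43 did (adjusted p = 0.0343), with no overlap. Nptx2, a secreted pentraxin that gathers glutamate receptors at synapses, was at 1.39, 0.122 and 0.801 CPM in carboplatin, 25.7, 21.6 and 2.35 CPM in selumetinib, and 0.186 to 1.49 CPM in PBS, with a median of 0.756 CPM. It was apart between selumetinib and PBS (4.34 ± 0.78, edgeR adjusted p = 0.0884) and lower in carboplatin than in selumetinib (-4.40 ± 1.03, adjusted p = 0.0240).

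Among the transmitter genes, Gad1 and Gad2 encode the enzymes that make GABA, and Slc32a1 the transporter that loads GABA and glycine into vesicles. Gad1 was at 3.81, 3.10 and 3.04 CPM in carboplatin, 206, 167 and 38.7 CPM in selumetinib, and 0.838 to 110 CPM in PBS, with a median of 24.3 CPM. Gad2 was at 1.66, 0.897 and 1.00 CPM in carboplatin, 255, 140 and 36.1 CPM in selumetinib, and 0.186 to 98.2 CPM in PBS, with a median of 24.7 CPM. Slc32a1 was at 1.21, 0.408 and 1.10 CPM in carboplatin, 91.3, 66.9 and 15.4 CPM in selumetinib, and 0.326 to 54.0 CPM in PBS, with a median of 10.4 CPM. For all 3 genes the carboplatin libraries were alike and low, PBS 1 lay below them, PBS 3 near them, and PBS 2, 4, 5 and 6 above them.

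Gad1 gave log2 fold changes of -3.45 ± 1.29 for carboplatin against PBS (edgeR adjusted p = 0.212) and -5.37 ± 1.48 for carboplatin against selumetinib (adjusted p = 0.0382). For Gad2 these were -4.81 ± 1.58 (edgeR adjusted p = 0.158) and -6.91 ± 1.80 (adjusted p = 0.0323). For Slc32a1 they were -4.13 ± 1.48 (edgeR adjusted p = 0.194) and -5.98 ± 1.68 (adjusted p = 0.0406). All 3 were thus lower in carboplatin than in selumetinib without overlap, and not called against PBS with all libraries. Gad1 overlaps the antisense gene Gad1os.

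The 3 GABA genes were high and low in the same libraries, and the promoter windows of all genes from RefSeq (build GRCm38.p6, 250 bases before to 50 after the start) were searched on both strands. The motifs, taken from general knowledge and not from the files, were the core of RE1, AGCACC and GGACAG with any 2 bases between them, its left arm, TTCAGCACC, whose last letters AGCACC also open the core, and the cyclic AMP response element CRE, TGACGTCA. RE1 is the element bound by the repressor REST, which holds neuronal genes off in other cells. A window was given for 20 of the 31 genes. By exact match, the core was found in that of Gad2 alone, and in 0.0592% of all 27025 genes with a window. Near matches were not counted, and genes without a window were not searched. Whether Gad1 and Slc32a1 had a window is not reported here. The left arm was found in Syn1 alone (0.433% of all genes), as was the CRE (2.03% of all genes). The windows with a match are shown 5′ to 3′ along the gene's own strand, with the matched letters in capitals. That of Gad2 is chr2:22622077-22622376 on the plus strand, with its match at position 88 from the first base shown, and that of Syn1 is chrX:20920869-20921168 on the minus strand, with matches at positions 19 and 92.
Gad2: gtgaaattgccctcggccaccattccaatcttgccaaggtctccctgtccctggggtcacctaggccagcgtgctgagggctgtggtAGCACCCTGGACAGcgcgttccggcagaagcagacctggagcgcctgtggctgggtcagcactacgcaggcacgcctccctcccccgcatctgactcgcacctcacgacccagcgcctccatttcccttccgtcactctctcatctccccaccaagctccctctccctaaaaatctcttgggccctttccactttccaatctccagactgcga
Syn1: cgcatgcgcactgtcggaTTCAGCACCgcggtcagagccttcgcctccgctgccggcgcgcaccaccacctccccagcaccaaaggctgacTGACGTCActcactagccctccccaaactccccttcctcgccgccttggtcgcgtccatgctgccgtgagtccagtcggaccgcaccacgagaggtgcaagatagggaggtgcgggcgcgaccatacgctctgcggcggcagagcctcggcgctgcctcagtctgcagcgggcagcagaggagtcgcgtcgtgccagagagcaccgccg

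Slc17a6 and Slc17a7 encode vesicular glutamate transporters, of subcortical neurons and ganglion cells for Slc17a6 and of cortical neurons and photoreceptors for Slc17a7. Slc17a6 was at 2.63, 1.35 and 1.27 CPM in carboplatin, 128, 199 and 6.93 CPM in selumetinib, and 0.328 to 7.33 CPM in PBS, with a median of 3.15 CPM. Selumetinib 1 and 2 were 40.8 and 63.2 times the PBS median for it, and carboplatin was lower than selumetinib by -5.99 ± 1.43 without overlap (edgeR adjusted p = 0.0252). Slc17a7 had another pattern, at 32.6, 1.55 and 55.3 CPM in carboplatin, 4.53, 1.07 and 0 CPM in selumetinib, and 0.478 to 21.5 CPM in PBS, with a median of 2.65 CPM. No comparison passed for it, with log2 fold changes of 2.46 ± 1.33 for carboplatin against PBS (edgeR adjusted p = 0.390) and 3.99 ± 1.80 against selumetinib (adjusted p = 0.156).

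The balance of glutamate and GABA genes differed between libraries. On the per-kilobase scale, the ratio of Slc17a6 to Gad1 was 0.977, 0.614 and 0.591 in carboplatin, 0.881, 1.68 and 0.253 in selumetinib, and 0.707, 0.0940, 0.133, 0.132, 0.124 and 0.216 in PBS 1 to 6. PBS 2, which had the highest GABA sum of the PBS libraries, had the lowest ratio, while selumetinib 1 and 2, with GABA sums of 553 and 374 CPM, had ratios of 0.881 and 1.68. In PBS 1 the ratio rests on 9 counts of Slc17a6 and 18 counts of Gad1, and in PBS 3 on 10 counts of Slc17a6. Slc17a6 had only 33, 38 and 36 counts in carboplatin 2, carboplatin 3 and PBS 5. The ratio was chosen after the values were seen, and the groups were not tested on it.

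Glra2, a subunit of the glycine receptor, had 1, 1 and 2 counts in carboplatin 1 to 3, against 802, 602 and 21 counts in selumetinib and 2, 83, 2, 43, 19 and 35 counts in PBS 1 to 6. It was lower in carboplatin than in selumetinib (edgeR adjusted p = 0.0193), and no fold is given at such counts. Dgkk, a diacylglycerol kinase, had 5, 0 and 2 counts in carboplatin, against 1577, 1898 and 153 counts in selumetinib and 2, 172, 12, 149, 57 and 96 counts in PBS 1 to 6. It was lower in carboplatin than in selumetinib (edgeR adjusted p = 0.0149), again without a fold. For both genes PBS 1 and PBS 3 were the lowest PBS libraries, as for the GABA genes.

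Hs3st4, a sulfotransferase that modifies heparan sulfate, was at 0.333, 0.122 and 0.234 CPM in carboplatin, 20, 20.9 and 0.684 CPM in selumetinib, and 0.197 to 1.13 CPM in PBS, with a median of 0.346 CPM. Selumetinib 3 lay inside the PBS range, while selumetinib 1 and 2 were 57.8 and 60.4 times the PBS median. Carboplatin was lower than selumetinib by -5.87 ± 1.19 without overlap (edgeR adjusted p = 0.0166). That fold is uncertain, since Hs3st4 had only 11, 3 and 7 counts in carboplatin and 5 to 27 counts in PBS. In selumetinib it had 565, 588 and 16 counts, and the call was lost without selumetinib 1 or without selumetinib 2.

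The ganglion cell and neuron markers did not form 1 pattern. Thy1, a surface glycoprotein of neurons, was at 27.3, 30.8 and 21.6 CPM in carboplatin, 194, 217 and 36.1 CPM in selumetinib, and 26.1 to 45.2 CPM in PBS, with a median of 37.4 CPM. It was lower in carboplatin than in selumetinib (-2.49 ± 0.52, edgeR adjusted p = 0.0178) with no overlap. Rbfox3, the nuclear antigen NeuN of mature neurons, was at 2.54, 0.530 and 0.634 CPM in carboplatin, 49.3, 65.3 and 5.35 CPM in selumetinib, and 0.466 to 7.87 CPM in PBS, with a median of 5.13 CPM, and differed likewise between the drugs (-5.00 ± 1.32, adjusted p = 0.0334).

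Uchl1, a ubiquitin hydrolase abundant in neurons, was at 115, 129 and 106 CPM in carboplatin, 408, 451 and 122 CPM in selumetinib, and 52.2 to 199 CPM in PBS, with a median of 108 CPM. Carboplatin lay inside the PBS range and no comparison passed (carboplatin against selumetinib -1.49 ± 0.50, edgeR adjusted p = 0.0664). Uchl1 overlaps the antisense gene Uchl1os. Sncg, gamma-synuclein of ganglion cell axons, was at 14.8, 24.0 and 14.2 CPM in carboplatin, 24.1, 24.6 and 15.1 CPM in selumetinib, and 7.18 to 19.1 CPM in PBS, with a median of 12 CPM, and no comparison passed.

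Isl1, a homeodomain factor of several neuron classes, was at 3.33, 0.408 and 1.24 CPM in carboplatin, 19.7, 27.7 and 2.39 CPM in selumetinib, and 0.124 to 1.46 CPM in PBS, with a median of 0.363 CPM. All selumetinib libraries were above PBS for it (4.97 ± 0.88, edgeR adjusted p = 0.0884). Rbpms, an RNA-binding protein that marks ganglion cells within the retina, was at 17, 14.1 and 13.9 CPM in carboplatin, 6.19, 5.29 and 12 CPM in selumetinib, and 9.76 to 19.1 CPM in PBS, with a median of 11.6 CPM. It is one of the 2 genes of the 31 that were higher in carboplatin than in selumetinib without overlap, but its difference of 0.94 ± 0.32 did not pass (edgeR adjusted p = 0.0744). Pou4f1, a POU factor of ganglion cells and sensory neurons, had 11, 36 and 18 counts in carboplatin, 2, 3 and 2 counts in selumetinib and 0 to 81 counts in PBS, with PBS 1 the highest, and no comparison passed.

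Axonal cytoskeleton and synaptic genes were then set against each other as sums. The 7 cytoskeleton genes summed to 464, 455 and 352 CPM in carboplatin, 2003, 1872 and 452 CPM in selumetinib, and 131 to 667 CPM in PBS, with a median of 417 CPM. The 15 genes of vesicles, plasticity and transmitters summed to 364, 310 and 374 CPM in carboplatin, 2936, 3074 and 524 CPM in selumetinib, and 263 to 985 CPM in PBS, with a median of 472 CPM. The log2 ratio of the first sum to the second was 0.35, 0.55 and -0.09 in carboplatin, -0.55, -0.72 and -0.21 in selumetinib and -1.0, -0.56, 0.22, -0.26, -0.07 and -0.85 in PBS 1 to 6. Each carboplatin library was above each selumetinib library. Carboplatin 1 and 2 were also above all PBS libraries, while carboplatin 3 and the 3 selumetinib libraries lay inside the PBS range. Map2, a gene more of dendrites than of axons, holds much of the first sum in selumetinib and in PBS 2, 4, 5 and 6. Its share is smaller in carboplatin, PBS 1 and PBS 3. Without Map2 the log2 ratio was -0.07, 0.23 and -0.64 in carboplatin, -1.63, -1.51 and -1.07 in selumetinib and -2.08 to -0.32 in PBS. No test was made on these sums.

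The neurofilament genes alone summed to 79.7, 157 and 47.7 CPM in carboplatin and 271, 316 and 63.7 CPM in selumetinib, and the GABA genes to 6.68, 4.40 and 5.14 CPM in carboplatin and 553, 374 and 90.3 CPM in selumetinib. The log2 ratio of the neurofilament to the GABA sum was 3.58, 5.16 and 3.21 in carboplatin, -1.03, -0.24 and -0.50 in selumetinib, and 5.30, -2.17, 3.74, -1.35, 0.40 and -0.12 in PBS 1 to 6. PBS 1 and PBS 3 thus stood with carboplatin on this ratio, PBS 4 and PBS 6 near selumetinib, PBS 5 between them and PBS 2 below all. This ratio, like the spread of the GABA sum over PBS, was picked out after the values were seen, and was not tested.

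**Figure D4:**
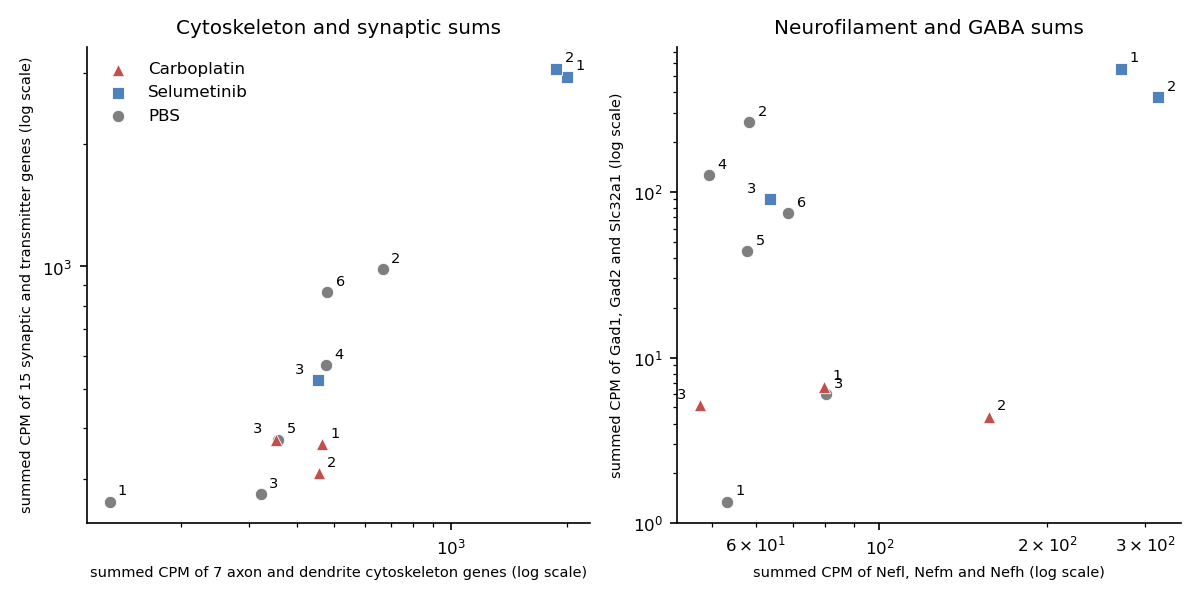
Summed CPM per library on log axes. In the left panel the 15 synaptic and transmitter genes are set against the 7 cytoskeleton genes, and selumetinib 1 and 2 lie apart at the upper right. In the right panel the GABA genes are set against the neurofilament genes, and the 6 PBS libraries spread from 1.35 to 263 CPM on the GABA axis but only from 49.5 to 80.1 CPM on the neurofilament axis.

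Further genes of the same pathways were counted from 4 lists, for which edgeR called 0 in either direction against PBS for both drugs. Of 27 further cytoskeleton and transport genes, 8 were lower (background 8.35%) and 0 higher (background 5.65%) in carboplatin than in selumetinib, with a median log2 fold change of -0.47. Ina, the neuronal intermediate filament alpha-internexin, was among them at 12.3, 13.7 and 10.6 CPM in carboplatin, against 106, 117 and 15.3 CPM in selumetinib (-2.70 ± 0.78, edgeR adjusted p = 0.0429). Of 29 further vesicle and release genes, 15 were lower and 1 higher, with a median of -2.22. Stx1a, the syntaxin partner of Snap25, was lower by -3.45 ± 0.56 (edgeR adjusted p = 0.00908), and Syn3, a synapsin, was the one higher gene at 1.42 ± 0.28 (adjusted p = 0.0154). Of 25 postsynaptic receptor and scaffold genes, 15 were lower and 0 higher, with a median of -3.43. Of 10 genes of neurogenesis and immature neurons, 5 were lower and 0 higher. When any single carboplatin library, selumetinib 1 or selumetinib 2 was left out, 1 gene was lower in the vesicle list and 0 in the other 3 lists.

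Against PBS, where 0 of these genes were called by edgeR, the unadjusted counts for carboplatin were 1 higher and 2 lower of the cytoskeleton and transport list, 3 higher and 1 lower of the vesicle list and 0 higher and 3 lower of the postsynaptic list, beside 8.12% higher and 8.43% lower of all genes tested. For selumetinib they were 11 higher and 0 lower, 23 higher and 1 lower, and 21 higher and 0 lower, beside 14.0% higher and 10% lower of all genes tested. The medians for selumetinib were 0.35, 1.83 and 2.53, and those for carboplatin -0.11, -0.40 and -1.06.

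Marker genes of neighbouring tissues moved with several of these results. The sum of 17 hypothalamic neuron genes (14 tested) was 564, 76.9 and 272 CPM in carboplatin, 2118, 989 and 476 CPM in selumetinib, and 74.8, 471, 131, 508, 89.7 and 558 CPM in PBS 1 to 6. It was highest in selumetinib 1 and 2, the libraries in which 26 of the 31 genes were highest, and of its 14 tested genes 8 were lower and 0 higher in carboplatin than in selumetinib, and 0 were called when any single carboplatin library, selumetinib 1 or selumetinib 2 was left out. Avp, vasopressin of hypothalamic neurons, was at 460, 20.4 and 214 CPM in carboplatin and 1034, 300 and 292 CPM in selumetinib, and 38.5, 278, 88.3, 301, 22.5 and 435 CPM in PBS 1 to 6. Selumetinib 2 and 3 were thus inside the PBS range for Avp. Pmch, a hypothalamic peptide, reached 75.1 CPM in selumetinib 2 and was at most 1.13 CPM in PBS. The part of such cells in the levels of the 31 genes was not tested.

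The sum of 10 photoreceptor genes was 865, 43.5 and 1636 CPM in carboplatin, 3.15, 2.91 and 0.941 CPM in selumetinib, and 0.876 to 136 CPM in PBS, and it was high in the same 2 carboplatin libraries in which Slc17a7 was high. In carboplatin 2, where the sum was lowest of the carboplatin libraries, Slc17a7 was at 1.55 CPM, inside the PBS range. PBS 2 had the highest photoreceptor sum in PBS, 136 CPM, with Slc17a7 at 4.02 CPM, and PBS 6 the highest Slc17a7 in PBS, 21.5 CPM, with a photoreceptor sum of 1.13 CPM. The part of retinal RNA in the Slc17a7 values was not tested.

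The sum of 10 mature oligodendrocyte genes was 50637, 94968 and 64176 CPM in carboplatin, 27551, 18955 and 64816 CPM in selumetinib, and 28309 CPM in PBS 1 against 58715 to 68746 CPM in PBS 2 to 6. Selumetinib 1 and 2, where the neuronal genes were high, were thus low in it, and so was PBS 1, where 17 of the 31 genes were lowest of the PBS libraries. The sum of 8 astrocyte genes was 12476, 17941 and 12409 CPM in carboplatin, 6408, 5638 and 9815 CPM in selumetinib, and 4429 to 13848 CPM in PBS. The 7 cortical and hippocampal markers summed to 76.2 to 99.0 CPM in carboplatin and 59.2 to 92.4 CPM in selumetinib. In PBS their sum was 26.6 to 118 CPM. Prox1 held most of it in every library, with 95.5 of 99.0 CPM in carboplatin 2 and 44.6 of 59.2 CPM in selumetinib 2. Of 4 tested, 1 was lower in carboplatin than in selumetinib and 0 higher. The lower gene was Bcl11b, at 0.568 to 2.12 CPM in carboplatin and at least 5.94 CPM in selumetinib (log2 -3.15 ± 0.56, edgeR adjusted p = 0.0122). Its call was lost without carboplatin 1 or without selumetinib 1. Neurod6 and Emx1 were at or near 0 in every library, at most 0.166 and 0.930 CPM, both in PBS 6. PBS 6 was also the PBS library with the highest Camk2a and Slc17a7, and whether these are related was not tested.

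**Figure D5:**
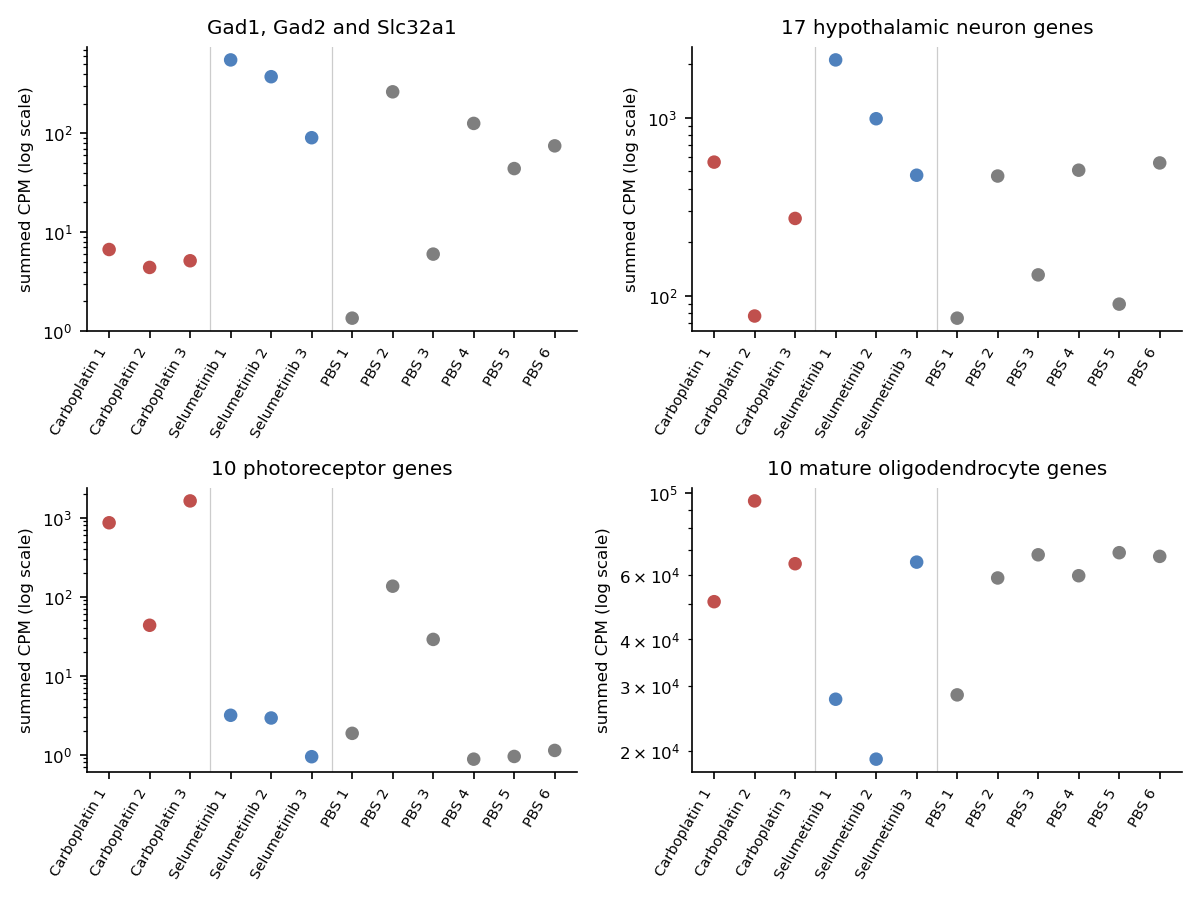
Summed CPM per library, on log axes, of the GABA genes and of 3 marker lists, coloured by group (red carboplatin, blue selumetinib, grey PBS). The GABA and hypothalamic sums are highest in selumetinib 1 and 2, the photoreceptor sum in carboplatin 1 and 3, and the oligodendrocyte sum is low in selumetinib 1, selumetinib 2 and PBS 1.

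Other neuron lists were also high in selumetinib 1 and 2. The 8 peripheral ganglion neuron genes summed to 2.93, 1.43 and 3.41 CPM in carboplatin, 74.7, 79.5 and 15.5 CPM in selumetinib and 2.03 to 20.1 CPM in PBS. The 10 further ganglion cell genes summed to 37.4, 33.7 and 27.9 CPM in carboplatin, 128, 149 and 34.4 CPM in selumetinib, and 15.8 to 39.4 CPM in PBS, most of it in selumetinib from Nell2 at 113, 136 and 19.1 CPM, while Opn4, the ganglion cell pigment melanopsin, was at most 2.35 CPM in any library. The sum of 9 amacrine and bipolar cell genes was 182 to 197 CPM in carboplatin, 158 to 222 CPM in selumetinib and 106 to 272 CPM in PBS. That of 6 Schwann cell genes was 93.6 to 117 CPM in carboplatin, 21.9 to 133 CPM in selumetinib and 40.0 to 694 CPM in PBS, the highest being PBS 1.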

How the data were processed

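The 12 optic nerve libraries were grouped by their treatment label. Raw counts of reads for each Ensembl gene were deposited in a single table. STAR, HTSeq, Trimmomatic, FastQC and DESeq2, and build mm10, are named in the submitters' processing notes. Their versions, the annotation and the strand setting are not given in the sources used here. GENCODE M21 (GRCm38, equal to mm10) holds 34490 of the IDs and gave positions and merged exon lengths.

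The filterByExpr defaults (at least 10 counts, total at least 15) kept 18344 genes. In R 4.3.3, edgeR 4.0.16 with TMM factors and a robust quasi-likelihood fit modelled the 3 groups together over 12 libraries. Tests were two-sided, with Benjamini-Hochberg adjustment over all genes tested at 0.05. The common dispersion was 0.272. CPM are the deposited counts scaled to TMM library sizes. The SE is the absolute log2 fold change divided by the square root of the F statistic, and is not a fitted one. Total counts limit the precision of low genes. Tested on simulated data, the fit recovered changed genes at a small spread but few of them at a spread near that of these libraries.

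The 31 genes, 14 further lists (186 other genes) and the tests were chosen with earlier results of these data known. Values in every library were given for each of the 31 genes that edgeR called and for the most abundant of each role, and for the others where a sentence rests on them. The alternatives were DESeq2 1.42.0, limma 3.58.1 voom, RLE factors, no filter, only the groups compared, other PBS controls, a replicate term and libraries left out. The fit without carboplatin 1 and 3 was added after the data were seen. Single values of some genes in the further lists are not reported here.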

Additional observations from a re-analysis of the deposited data

Results flagged for a closer look

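Of 34 values checked across the 6 PBS libraries, 5 had a single library far from the rest, by a gap to its nearest neighbour that, as a share of the range, was above Dixon's 95% critical value. Chance alone flags about 1 in 20 such groups. Nefh was at 44.2 CPM in PBS 3, against 18.1 CPM in the next PBS library. Camk2a was at 359 CPM in PBS 6, against 94.1 CPM in the next. Slc17a7 was at 21.5 CPM in PBS 6, against 4.42 CPM in the next. Rbpms was at 19.1 CPM in PBS 1, against 12.5 CPM in the next. Pou4f1 was at 3.77 CPM in PBS 1, against 0.731 CPM in the next. PBS 1 is the library with the highest sum of skeletal muscle genes, at 85123 CPM, and its part in the Rbpms and Pou4f1 values was not tested.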

How the results depend on the processing

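Of the 31 genes in carboplatin against PBS, edgeR called 0 in the main analysis, DESeq2 called 6, limma voom 7, the fit with PBS 4 to 6 as controls 5 and the fit without PBS 1, selumetinib 1 and selumetinib 2 5. Leaving out 1 library gave 0 to 5, the 5 without PBS 1. The count over all genes, 383 in the main analysis, was 1574 with DESeq2, 5470 with limma voom, 7 with PBS 1 to 3 as controls, 2202 with PBS 4 to 6, 3073 without PBS 1, selumetinib 1 and selumetinib 2, 14 without carboplatin 1 and 3, and 73 to 1941 with 1 library left out. For selumetinib against PBS the 31 gave 21 calls with DESeq2, 29 with limma voom and 0 to 24 with 1 library left out, the 24 without selumetinib 3. Over all genes these were 2403, 10165 and 0 to 4089, and 3 with PBS 1 to 3 as controls. The median log2 fold change of the 31, 2.11 in the main analysis, was 0.03 without PBS 1, selumetinib 1 and selumetinib 2, and 0.22 without selumetinib 1 and 2. For carboplatin against selumetinib the 20 calls became 1 without PBS 1, selumetinib 1 and selumetinib 2 (Dgkk), 0 without selumetinib 1 and 2, 0 without carboplatin 1 and 3, and 0 to 26 with 1 library left out. Over all genes, 2568 in the main analysis, these were 516, 5, 11 and 134 to 5974, and 4715 with DESeq2 and 10788 with limma voom. The median of -3.14 became -1.05 both without selumetinib 1 and 2 and without PBS 1 as well. Fits with fewer libraries have fewer degrees of freedom, and the cause of the other shifts was not tested.

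No pairing by replicate number was seen. Same-numbered libraries deviated together with correlations of -0.12 to 0.38 that were not all over 0.1 in any comparison. With so few libraries these correlations cannot show that pairing is absent. Only libraries with the same number were compared, so other pairings were not examined. With the replicate number as a block, edgeR called 0 of the 31 in each comparison. Over all genes it called 5 (carboplatin against PBS), 2 (selumetinib against PBS) and 50 (carboplatin against selumetinib). PBS libraries whose number no drug library shares each form a block alone, so the fit draws no group difference from them. The loss of calls and the changed values may thus come from fewer PBS libraries as well as from the block. In the fit with the block, Snap25 was 0.28, Syt1 0.26 and Slc17a6 0.62 in carboplatin against PBS, and Nefh was -0.05 in selumetinib against PBS.

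Among 650 values of single genes in carboplatin against selumetinib, 116 with 1 library left out and 86 under other settings kept their direction but lost their call, and 11 and 17 gained one. Against PBS 5 and 23 of 712 gained one for carboplatin, and 24 and 50 of 712 for selumetinib. Other changes of direction of a log2 fold change all concern values that passed no threshold in the main analysis, except Nefm in carboplatin against selumetinib. In carboplatin against PBS, limma voom gave Nefl -0.51, Nefm -0.04, Pou4f1 1.62 and Uchl1 -0.06, PBS 1 to 3 as controls gave Nptx2 0.12 and Uchl1 -0.06, and PBS 4 to 6 gave Nefl -0.13 and Pou4f1 1.25. Without PBS 1, selumetinib 1 and selumetinib 2 these were Nefl -0.05, Pou4f1 1.44 and Uchl1 -0.15, and without carboplatin 1 and 3, Slc17a7 -1.80, Pou4f1 0.79 and Isl1 -0.36. With 1 library left out, values ran from -0.44 to 0.36 for Nefl, -0.12 to 0.33 for Nefm, -0.79 to 0.44 for Nptx2, -0.85 to 1.44 for Pou4f1 and -0.14 to 0.27 for Uchl1. In selumetinib against PBS, limma voom gave Slc17a7 0.14. Without selumetinib 1 and 2 the values were Nefm -0.01, Nefh -0.44, Syt1 -0.08, Camk2a -1.95, Slc32a1 -0.08, Glra2 -0.45 and Thy1 0.00 (just below 0), and without PBS 1 as well, Nefh -0.44, Map2 -0.20, Syt1 -0.33, Vamp2 -0.04, Camk2a -1.99, Gad1 -0.18, Gad2 -0.17, Slc32a1 -0.34, Glra2 -0.69, Rbpms 0.07 and Uchl1 -0.06. In carboplatin against selumetinib, limma voom gave Nefh -0.30 and Tubb3 -0.12, the fits without selumetinib 1 and 2, with or without PBS 1, gave Nefm 0.15, Vamp2 0.16 and Sncg 0.21, that without carboplatin 1 and 3 gave Tubb3 -0.13, Slc17a7 -0.25 and Sncg 0.19, and Tubb3 ran from -0.24 to 0.32 with 1 library left out.

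The mean log2 ratio of cytoskeleton to synaptic genes, 0.27 in carboplatin, -0.49 in selumetinib and -0.42 in PBS, was 3.39, 0.57 and 1.74 from the median log2 CPM of each set, and -2.05, -3.25 and -3.0 with neurofilament genes alone. These are other scales, and in each of them carboplatin had the highest mean, although single libraries overlapped. From the medians, PBS 1 (4.39) and PBS 3 (4.08) were above carboplatin 1 (2.63) and carboplatin 3 (2.59), and carboplatin 2 was at 4.94. With neurofilament genes, PBS 3 (-1.78) was above carboplatin 1 (-2.19) and carboplatin 3 (-2.97), and carboplatin 2 was at -0.98. At 21793052 to 33375754 counts per library, Glra2, Dgkk and Pou4f1 had as few as 0 to 3 counts, which limits what can be said of them.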
